A study of Rattus norvegicus with 3 samples.

Results

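The circadian clock genes Dbp, Per1, Per2, Per3, Ciart, Nr1d1, Nr1d2, Arntl, Clock and Cry1, 10 of the 32883 genes in each table, were followed through 3 rat retina libraries. They were taken by symbol, each symbol had 1 row, and all 10 passed a filter that kept 15543 genes with a CPM value (the count scaled to the size of its library) of at least 1 in at least 1 library. The libraries were made from Sprague-Dawley rat retina, taken at postnatal day 60, and sequenced after ribosomal RNA had been removed. The HIOP_GSK library came from retina of eyes given a drug named only as GSK in the anterior chamber 24 h before ischemia. The HIOP library came from eyes whose pressure was held at 110 mmHg for 60 min to stop the retinal circulation, with the tissue taken 12 h later, and HIOP_GSK eyes went through the same procedure. The CTL library is labelled as without treatment, whereas the protocol describes a sham operation at 2.66 kPa, and which of these holds for it is not stated. All groups share strain, age and tissue, no vehicle-injected eye was analysed here, and neither the number of animals per library, the time of day of collection nor the light schedule is given in the sources used here. Each group is a single library, so the differences below carry no test. Total counts per library lay between 15132754 and 17221510.

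The mammalian clock is a feedback loop of transcription. The proteins CLOCK and BMAL1 (from the gene Arntl, now also called Bmal1) bind E-box sequences and switch on the Per, Cry, Ciart, Nr1d and Dbp genes, and the PER, CRY and CIART proteins then block CLOCK and BMAL1. In a second loop the nuclear receptors REV-ERB alpha and beta (Nr1d1 and Nr1d2) repress genes with a RORE sequence, Arntl, Clock and Cry1 among them, so that in most tissues Arntl peaks at about the opposite time of day from Nr1d1, Dbp and the Per genes. The retina holds a clock of its own in several neuron types and in Müller glia, which is known for its rhythms of dopamine and melatonin. Below, the 7 genes Dbp, Per1, Per2, Per3, Ciart, Nr1d1 and Nr1d2 are called the E-box arm, and the 3 genes Arntl, Clock and Cry1 the RORE arm.

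The grouping comes from textbook knowledge, and promoter sequence was set beside it. The RefSeq promoter table (build GRCr8, used by gene symbol because the counts were made on another build) held 11 windows of 300 bases around annotated starts for 9 of the 10 members. Both strands were searched for the E-box CACGTG, the E′-box CACGTT, a weaker form of the same site that was added after the first search, the D-box TTATGNAA, the RORE cores TAGGTCA and TGGGTCA, and the cAMP response element TGACGTCA. The Ciart window (chr2:186112197-186112496, minus strand) had 3 E-boxes, and the second of the Nr1d1 windows (chr10:84229405-84229704, minus strand) had 1. The Per2 window (chr9:99496944-99497243, minus strand) had an E′-box and a D-box, and the Arntl window (chr1:176766078-176766377, plus strand) had a RORE core. These 4 windows are printed 5′ to 3′ with the matches in capitals because they hold the sites after which the arms are named, or the D-box:
Ciart: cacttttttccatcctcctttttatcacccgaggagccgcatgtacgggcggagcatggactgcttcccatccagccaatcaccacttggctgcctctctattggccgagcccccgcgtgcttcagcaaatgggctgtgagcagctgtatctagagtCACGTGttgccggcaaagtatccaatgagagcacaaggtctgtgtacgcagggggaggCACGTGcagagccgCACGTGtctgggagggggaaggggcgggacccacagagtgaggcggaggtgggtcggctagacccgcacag
Nr1d1: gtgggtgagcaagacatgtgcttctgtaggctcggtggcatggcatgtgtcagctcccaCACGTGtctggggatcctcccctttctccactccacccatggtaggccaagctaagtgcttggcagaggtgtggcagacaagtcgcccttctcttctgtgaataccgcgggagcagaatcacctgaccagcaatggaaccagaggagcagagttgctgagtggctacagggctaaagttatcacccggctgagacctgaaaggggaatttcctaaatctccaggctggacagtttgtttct
Per2: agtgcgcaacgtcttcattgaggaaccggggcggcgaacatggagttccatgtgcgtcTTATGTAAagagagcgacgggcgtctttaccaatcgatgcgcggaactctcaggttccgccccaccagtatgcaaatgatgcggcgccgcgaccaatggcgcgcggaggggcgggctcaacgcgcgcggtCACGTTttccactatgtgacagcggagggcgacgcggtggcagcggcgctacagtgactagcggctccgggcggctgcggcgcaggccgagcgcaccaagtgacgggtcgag
Arntl: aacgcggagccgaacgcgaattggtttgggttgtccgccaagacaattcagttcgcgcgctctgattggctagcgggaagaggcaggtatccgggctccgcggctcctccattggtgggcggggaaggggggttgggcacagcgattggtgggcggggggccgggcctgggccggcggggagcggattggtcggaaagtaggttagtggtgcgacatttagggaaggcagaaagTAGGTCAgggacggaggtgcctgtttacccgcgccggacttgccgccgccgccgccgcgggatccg

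Of all 33469 RefSeq promoter windows of this length, 6.42% held the E-box, 4.83% the E′-box, 3.66% the D-box, 6.60% a RORE core and 1.83% the cAMP response element. The other window of Nr1d1 had an E′-box, so 2 members held an E-box and 2 an E′-box. None of the windows of Dbp, Per1, Per3, Nr1d2 and Clock held any of these motifs, and no member held the cAMP response element. A match is a description of the letters, and the absence of a match says only that they are not in that window.

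After ischemia most of the E-box arm was lower, and the RORE arm differed less. Set against CTL, HIOP had 6 of the 7 E-box genes lower, with a median log2 ratio of -0.69 (lowest -1.37, highest 0.50), while the 3 RORE genes had a median of -0.19 (lowest -0.33, highest 0.23). In bulk tissue fewer cells of a type and less RNA per cell cannot be told apart. Over all 15543 genes kept the median was 0.00, with quartiles of -0.39 and 0.35. Dbp and Ciart were at least 2-fold lower, 2 of 10 members, where 8.06% of all genes kept were, and no member was at least 2-fold higher, where 8.99% were. At 1.5-fold, 4 of 10 members were lower (Dbp, Ciart, Per3 and Per2) against 17.6% of all genes kept, and none was higher against 16.1%.

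**Figure D1:**
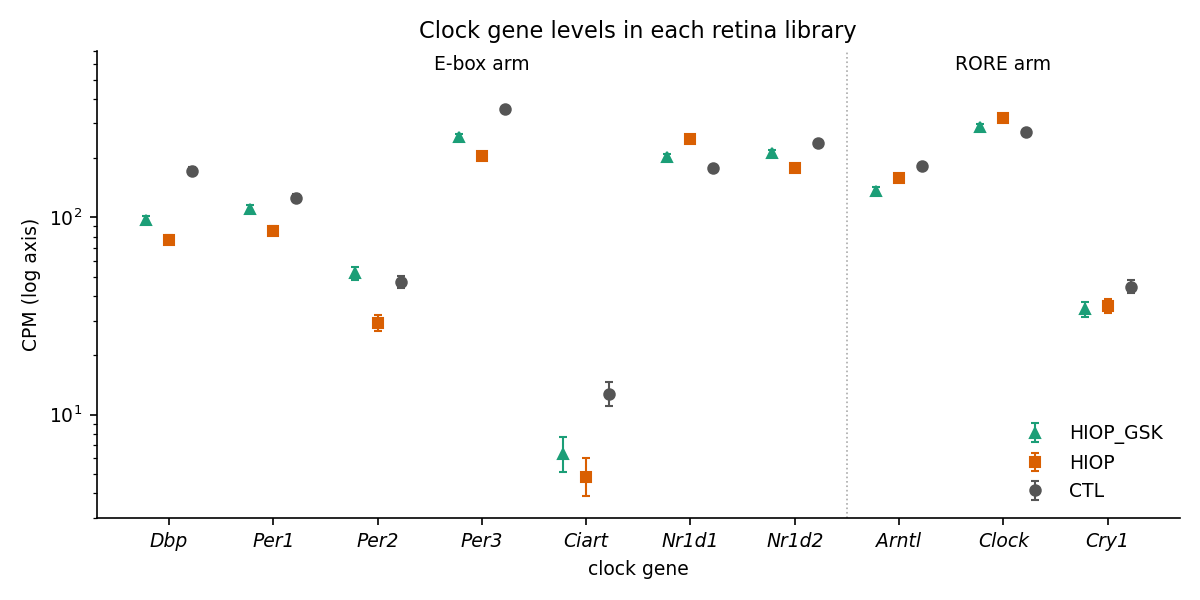
CPM of each clock gene on a log axis in HIOP_GSK, HIOP and CTL, 1 library each, with exact 95% Poisson intervals for counting error and a dotted line between the E-box and RORE arms. Dbp, the Per genes, Ciart and Nr1d2 are lowest in HIOP and Nr1d1 is highest there, at 250.4 CPM.

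The output gene Dbp encodes a D-box-binding transcription factor that passes the rhythm on to many other genes. Its level was 97.2 CPM in HIOP_GSK, 77.2 CPM in HIOP and 173 CPM in CTL. HIOP was lowest and CTL highest, and HIOP_GSK lay nearer to HIOP. The ratio of scaled counts in HIOP over CTL was 0.447 (95% exact interval 0.418 to 0.477), or 2.24-fold lower. Such intervals cover counting error only, and no molecular identifiers are named in the protocol, so reads are not taken as separate molecules. Only 5.89% of the genes kept had a lower log2 ratio than Dbp in that comparison. HIOP_GSK over CTL gave 0.563 (0.528 to 0.600), and HIOP_GSK over HIOP gave 1.26 (1.17 to 1.36).

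Ciart encodes a repressor of CLOCK and BMAL1 and is the member whose printed window holds 3 E-boxes. It had 96 counts in HIOP_GSK, 83 in HIOP and 205 in CTL, which is 6.31, 4.85 and 12.7 CPM in the same order. It was the least abundant member by CPM in each library, so its counting error is the widest. Its HIOP over CTL ratio was 0.381 (0.291 to 0.493), or 2.63-fold lower, and 3.64% of the genes kept had a lower log2 ratio. In HIOP_GSK over CTL it was 0.496 (0.385 to 0.635), yet with the prior count of 2 used for calls it fell just short of the 2-fold limit. HIOP_GSK over HIOP was 1.303 (0.961 to 1.77), an interval that includes no difference.

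The Per genes encode the main repressors of the loop, and Per1 and Per2 are also switched on directly by light and cAMP signals. Per3 had 256 CPM in HIOP_GSK, 205 CPM in HIOP and 354 CPM in CTL, with ratios of 0.579 (0.555 to 0.604) in HIOP over CTL and 1.25 (1.19 to 1.31) for HIOP_GSK over HIOP. Per1 had 110.0 CPM in HIOP_GSK, 85.8 CPM in HIOP and 125 CPM in CTL, with ratios of 0.685 (0.640 to 0.733) and 1.28 (1.19 to 1.38) in the same 2 comparisons. Both genes were lowest in HIOP and highest in CTL, and their HIOP_GSK over CTL ratios were 0.724 (0.695 to 0.754) for Per3 and 0.878 (0.823 to 0.938) for Per1. Per2 had another order, with 52.0 CPM in HIOP_GSK, 29.2 CPM in HIOP and 47.0 CPM in CTL. Its ratio was 0.621 (0.553 to 0.696) in HIOP over CTL and 1.78 (1.59 to 1.997) for HIOP_GSK over HIOP. Per2 was the only member past 1.5-fold between the 2 injured libraries. Against CTL, Per2 in HIOP_GSK was at 1.11, with an interval that reached 1.22 above and just included 1 below. That log2 ratio of 0.15 was -0.05 with the deposited TPM (a level per transcript length) and -0.03 with scaling to reference genes.

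Nr1d1 and Nr1d2 usually peak within a few hours of each other, and here they differed in direction. Nr1d1 had 201 CPM in HIOP_GSK, 250.4 CPM in HIOP and 177 CPM in CTL, the only E-box gene that was highest in HIOP. Nr1d2 had 211 CPM in HIOP_GSK, 178 CPM in HIOP and 238 CPM in CTL, so it was lowest there. Their ratios in HIOP over CTL were 1.41 (1.35 to 1.48) for Nr1d1 and 0.748 (0.713 to 0.784) for Nr1d2. Between HIOP_GSK and HIOP the pair again stood on opposite sides, at 0.804 (0.768 to 0.843) for Nr1d1 and 1.19 (1.13 to 1.25) for Nr1d2, and against CTL HIOP_GSK had 1.14 (1.08 to 1.20) and 0.887 (0.846 to 0.930) for the same genes. Within a library, the count of Nr1d1 over that of Nr1d2 was 0.952 in HIOP_GSK, 1.40 in HIOP and 0.743 in CTL, a comparison that no scaling of the library can alter. That ratio was 1.89 times as high in HIOP as in CTL (1.77 to 2.02) and 0.678 times as high in HIOP_GSK as in HIOP (0.633 to 0.726).

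Nr1d1 overlaps the thyroid hormone receptor gene Thra, which runs on the other strand. The strand setting of the counting is not stated, and without strand the reads from the stretch they share cannot be told apart. Thra itself had 78.7 CPM in HIOP_GSK, 91.8 CPM in HIOP and 117 CPM in CTL, with a log2 ratio of -0.35 in HIOP over CTL, opposite in sign to that of Nr1d1. Per2, Clock and Cry1 overlap loci named only by a number in the RefSeq annotation of GRCr8, and the other 6 members overlap none.

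The RORE arm holds the activators Arntl and Clock, and the repressor Cry1. Arntl had 136 CPM in HIOP_GSK, 159 CPM in HIOP and 182 CPM in CTL, so that both injured libraries were below CTL. Its ratios were 0.877 (0.832 to 0.924) in HIOP over CTL, 0.750 (0.708 to 0.793) in HIOP_GSK over CTL and 0.855 (0.807 to 0.905) in HIOP_GSK over HIOP. Clock, the partner of Arntl, oscillates weakly in most tissues. It had 287 CPM in HIOP_GSK, 318 CPM in HIOP and 271 CPM in CTL, with ratios of 1.17 (1.13 to 1.22) in HIOP over CTL and 0.905 (0.869 to 0.941) for HIOP_GSK over HIOP. Against CTL, HIOP_GSK had 1.06 (1.02 to 1.11), which lay on the other side of 1 with the deposited TPM and with scaling to reference genes. Cry1, a repressor that combines E-box and RORE control, had 34.2 CPM in HIOP_GSK, 35.6 CPM in HIOP and 44.6 CPM in CTL. It was 0.797 (0.714 to 0.889) in HIOP over CTL and 0.962 (0.854 to 1.08) for HIOP_GSK over HIOP, where the interval includes no difference, and 0.767 (0.684 to 0.859) for HIOP_GSK over CTL.

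The order of levels per transcript length differed between the libraries. The highest deposited TPM values among the members were those of Per3 (129), Nr1d1 (101) and Dbp (86.3) in HIOP_GSK and those of Nr1d1 (118), Per3 (101) and Dbp (67.6) in HIOP. In CTL they were those of Per3 (178), Dbp (169.75) and Nr1d1 (94.2). Ciart was lowest in both injured libraries, at 5.17 TPM in HIOP_GSK and 4.45 TPM in HIOP, and Per2 was lowest in CTL, at 9.52 TPM. Per2 was next to lowest in HIOP_GSK and HIOP, and with 1 library per group there is no spread against which to set such neighbours.

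**Figure D2:**
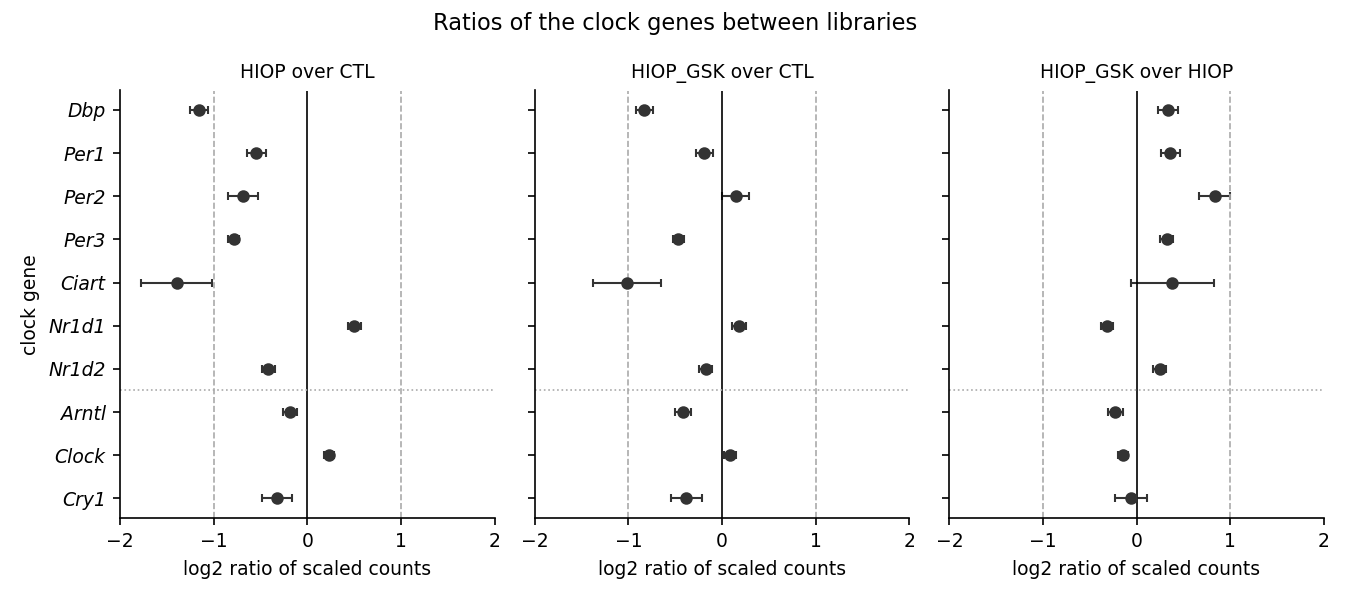
Log2 ratio of scaled counts for each clock gene in the 3 comparisons, 1 library per group, with exact 95% intervals for counting error, dashed lines at 2-fold and a dotted line between the E-box arm above and the RORE arm below. In HIOP over CTL 6 of 7 E-box genes lie left of zero, and in HIOP_GSK over HIOP 6 of 7 lie right of it while the 3 RORE genes lie left.

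In HIOP_GSK over HIOP the arms stood on opposite sides. The E-box arm had a median log2 ratio of 0.33 (range -0.31 to 0.83), with 6 of 7 genes higher and Nr1d1 lower, and the RORE arm had a median of -0.14 (range -0.23 to -0.06), with all 3 genes lower. The median of all genes kept was 0.00, with quartiles of -0.16 and 0.20. No member reached 2-fold, where 4.56% of all genes kept were higher and 1.69% lower by that much. At 1.5-fold, 1 of 10 members was higher against 9.68% of all genes kept, and none was lower against 4.75%, so the count of members is no larger than the background.

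In HIOP_GSK over CTL the E-box arm had a median of -0.19 (lowest -0.998, highest 0.18), with 5 of 7 genes lower, and the RORE arm one of -0.38 (range -0.42 to 0.09). No member was called at 2-fold, against 6.32% of all genes kept that were lower and 10.5% that were higher. At 1.5-fold 2 of 10 members, Dbp and Ciart, were lower against 16.6%, and none was higher against 17.6%. The HIOP_GSK and HIOP libraries are each set against the same CTL library, and HIOP is shared by the other 2 comparisons, so the 3 sets of values are not independent.

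The arms were then compared within libraries. The median log2 ratio of the E-box arm minus that of the RORE arm was -0.50 in HIOP over CTL, 0.20 in HIOP_GSK over CTL and 0.48 in HIOP_GSK over HIOP. The HIOP_GSK over CTL value was 0.06 when Nr1d1 was left out of the E-box arm, an alternative chosen after seeing the data. Set against Arntl in the same library, Dbp had 0.714 counts per Arntl count in HIOP_GSK, 0.484 in HIOP and 0.9504 in CTL. The Dbp-to-Arntl ratio in HIOP was thus 0.510 times that in CTL (exact interval 0.468 to 0.555). Per2 relative to Arntl was 0.382 in HIOP_GSK, 0.183 in HIOP and 0.259 in CTL, with HIOP_GSK at 2.08 times HIOP (1.83 to 2.37). Between HIOP and CTL, 6 of the 7 E-box genes were lower in HIOP relative to Arntl by an interval that did not reach 1, and Nr1d1 was higher at 1.61 (1.501 to 1.73). In HIOP_GSK over HIOP, 6 of 7 were higher relative to Arntl in the same sense, and the interval of Nr1d1, 0.941 (0.874 to 1.01), included 1. By log2 ratio alone, 35.6% of all genes kept lay below Arntl in HIOP over CTL. In HIOP_GSK over HIOP 82.1% lay above Arntl, so 6 of 7 is near the share of all genes kept there.

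**Figure D3:**
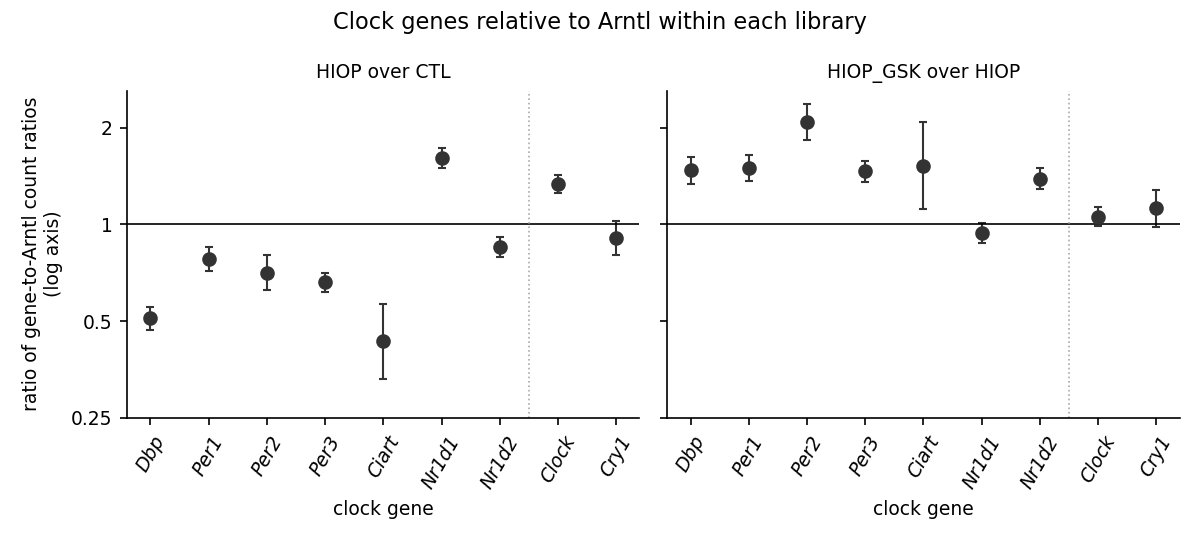
Count of each clock gene over that of Arntl in 1 library, divided by the same ratio in the other library (log axis), for HIOP over CTL and HIOP_GSK over HIOP, with exact 95% intervals for counting error. Dbp and Ciart stand lowest in HIOP over CTL, at 0.510 and 0.434, and Per2 highest in HIOP_GSK over HIOP, at 2.08.

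Where a rhythm moves to another phase, genes that peak at opposite times of day are displaced in opposite directions at most sampling times. Where it loses amplitude, each gene moves towards its daily mean. At a single time point that too can displace such genes in opposite directions, so opposite directions do not separate these cases. In HIOP over CTL the E-box arm was lower apart from Nr1d1, which was at 1.41. In the RORE arm Arntl and Cry1 were also lower, at 0.877 and 0.797, and Clock was higher, at 1.17. In HIOP_GSK over HIOP the arm medians stood on opposite sides, and every member but Per2 differed by less than 1.5-fold. Nr1d1, at 0.804, was lower there, unlike the rest of its arm. The intervals of Ciart and Cry1 included no difference. Each library is a single time point with an unstated time of day, so a shift of phase, a loss of amplitude and a difference in collection time cannot be told apart here.

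Further genes of the loop were taken from a list of 12, of which 11 passed the filter. Between HIOP and CTL 2 of the 11, Arntl2 and Nfil3, were 2-fold higher in HIOP, against 8.99% of all genes kept. Only 1, Hlf, was lower, against 8.06%. Counts this small do not set the list apart from the background in either direction, and Arntl2 had 2 counts in CTL. The median log2 ratio was -0.06. In HIOP_GSK over CTL 1 was higher, against 10.5%, and none lower, against 6.32%, with a median of 0.16. In HIOP_GSK over HIOP none of the 11 was 2-fold different, where 1.69% of all genes kept were lower and 4.56% higher. The median was 0.11. Hlf, which encodes a close relative of DBP, had 29.2 CPM in HIOP_GSK, 22.8 CPM in HIOP and 49.6 CPM in CTL, 2.18-fold lower in HIOP than in CTL (ratio 0.459, 0.406 to 0.519). Tef, the remaining gene of the DBP family, is named after its values were seen: it had 118 CPM in HIOP_GSK, 90.0 CPM in HIOP and 174 CPM in CTL, a ratio of 0.517 in HIOP over CTL (0.486 to 0.550). The 3 activators of the D-box thus had HIOP lowest and CTL highest. Nfil3, which encodes a repressor that competes for the D-box, had 10.9 CPM in HIOP_GSK, 18.1 CPM in HIOP and 7.52 CPM in CTL, 2.41-fold higher in HIOP than in CTL (1.95 to 3.00) and 0.600 times as high in HIOP_GSK as in HIOP (0.493 to 0.726). NFIL3 is also induced by cytokines in immune cells.

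Arntl2, a paralog of Arntl, had 25 counts in HIOP_GSK, 29 in HIOP and 2 in CTL, a ratio of 13.6 in HIOP over CTL with a wide interval (3.45 to 118). Its levels stayed under 2 CPM. The next genes are again named after their values were seen. Cry2 had 180.3 CPM in HIOP_GSK, 168 CPM in HIOP and 251 CPM in CTL, and Bhlhe41, an E-box repressor, 57.5 CPM in HIOP_GSK, 45.1 CPM in HIOP and 70.9 CPM in CTL. Both were lowest in HIOP, like the Per genes. Bhlhe40, also an E-box repressor on this list, was instead lowest in CTL. It had 82.5 CPM in HIOP_GSK, 76.2 CPM in HIOP and 60.6 CPM in CTL, a ratio of 1.26 in HIOP over CTL (1.16 to 1.37). Rorb, which encodes an activator of RORE sites and is abundant in retina, had a log2 ratio of -0.52 in HIOP over CTL and 0.73 for HIOP_GSK over HIOP. Rora, of the same family, had -0.05 and -0.32 in these comparisons. Npas2, which can stand in for Clock, had 14.2 CPM in HIOP_GSK, 16.3 CPM in HIOP and 12.7 CPM in CTL, the same order as Clock by CPM. The place of HIOP_GSK in that order is open for Npas2. Its ratios were 1.12 (0.917 to 1.36) in HIOP_GSK over CTL and 0.869 (0.724 to 1.04) in HIOP_GSK over HIOP.

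**Figure D4:**
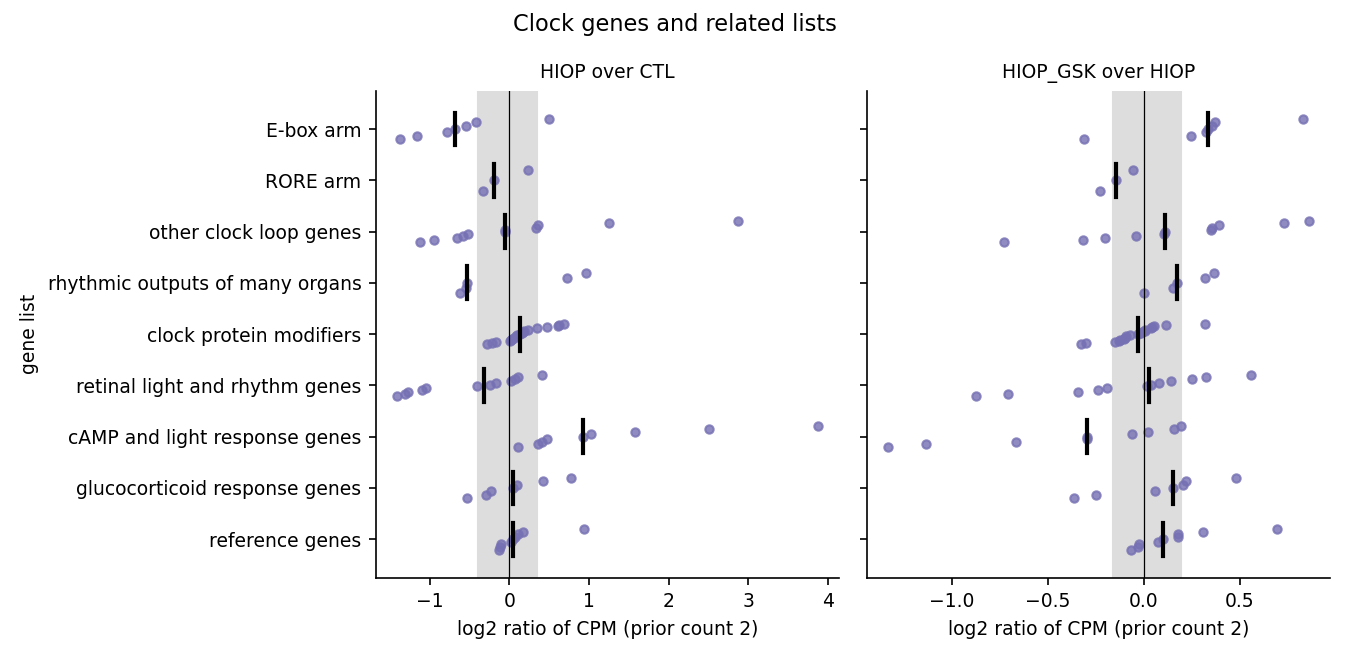
Log2 ratios of CPM, with HIOP over CTL in one panel and HIOP_GSK over HIOP in the other, for each gene kept of the clock arms and related lists (points) with the list's median (bar), where the grey band spans the quartiles of all 15543 genes kept and the horizontal scales of the panels differ. The E-box arm has a median of -0.69 in HIOP over CTL and 0.33 for HIOP_GSK over HIOP.

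Genes that oscillate in many organs were mixed. Of 6 listed, Tspan4 had 0 counts in all libraries and 5 were kept. In HIOP over CTL their median log2 ratio was -0.53. None was past 2-fold there, where 8.06% of all genes kept were lower and 8.99% higher. The medians were -0.23 in HIOP_GSK over CTL and 0.17 in HIOP_GSK over HIOP. Usp2, Wee1 and Tsc22d3 were lower in HIOP than in CTL, with log2 ratios of -0.62, -0.55 and -0.53, and Noct and Nampt were higher, at 0.96 and 0.73. These genes are named after their values were seen. Noct, which encodes the phosphatase nocturnin and is also induced by stress and serum, was past 2-fold in HIOP_GSK over CTL, at 2.20 (1.86 to 2.62). It was the only 1 of the 5, where 10.5% of all genes kept were that much higher.

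Retinal genes of melatonin, dopamine and light rhythms were followed next. Of 15 listed, 12 were kept. In HIOP over CTL 5 of them were 2-fold lower, against 8.06% of all genes kept, and none was higher, against 8.99%. The list's median log2 ratio was -0.32, where that of all genes kept was 0.00. In HIOP_GSK over CTL 4 were 2-fold lower, against 6.32% of all genes kept, and none higher, against 10.5%. The list's median there was -0.62. Opn4, which encodes the melanopsin photopigment of the ganglion cells that set the clock by light, had 18.5 CPM in HIOP_GSK, 18.0 CPM in HIOP and 44.9 CPM in CTL. Vipr2, a receptor for vasoactive intestinal peptide, had 37.0 CPM in HIOP_GSK, 36.5 CPM in HIOP and 88.3 CPM in CTL. Their ratios in HIOP_GSK over HIOP were 1.03 (0.871 to 1.21) for Opn4 and 1.01 (0.902 to 1.14) for Vipr2, both with intervals that include no difference. Adcyap1r1, a receptor for the peptide PACAP, was 2.68-fold lower in HIOP than in CTL, Pdc (phosducin, a photoreceptor protein) 2.14-fold lower, and the dopamine receptor gene Drd2 2.08-fold lower. In HIOP_GSK over HIOP none of the 12 was 2-fold different, where 1.69% of all genes kept were lower and 4.56% higher. The median was 0.03. Drd4 and Adcy1, which cycle under the clock in rodent photoreceptors, had log2 ratios of 0.11 and -0.24 in HIOP over CTL and are named after their values were seen. Aanat, the timing enzyme of melatonin synthesis and chosen in the same way, had 11 counts in HIOP_GSK, 8 in HIOP and 6 in CTL, below the filter, and a difference was not detectable at this depth.

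Some genes respond to cAMP and light, as Per1 and Per2 also do. Of 9 such genes, 4 were 2-fold higher in HIOP than in CTL, against 8.99% of all genes kept, and the list's median log2 ratio was 0.93. In HIOP_GSK over CTL 3 were, against 10.5%, and the median was 0.49. Junb had 107 CPM in HIOP_GSK, 235 CPM in HIOP and 15.9 CPM in CTL, Fos 47.3, 58.1 and 10.1 CPM in the same order, Egr1 181, 458 and 154 CPM, and Gem 34.7, 42.7 and 21.0 CPM. All are immediate early genes, and each was highest in HIOP, where Per1 and Per2 were lowest. These 4 were named because they passed 2-fold. Of the rest of the list, Crem and Dusp1 were highest in HIOP, and Nr4a1, Sik1 and Rasd1 in HIOP_GSK. In HIOP_GSK over HIOP 2 of 9 were at least 2-fold lower (Junb and Egr1), against 1.69% of all genes kept, with a median of -0.29.

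The make-up of the libraries also differed, and its part in the clock values was not tested. None of the 10 rod markers reached 2-fold lower in either injured library against CTL. The rod median was -0.47 in HIOP_GSK over CTL and -0.13 in HIOP over CTL. Several neuron and glia lists had lower medians in HIOP over CTL than the E-box arm: 6 of 8 Müller glia markers were at least 2-fold lower (median log2 ratio -1.85), 6 of 9 amacrine (-1.30), 7 of 9 ganglion cell (-1.19) and 7 of 9 cone markers (-1.14), where 8.06% of all genes kept were that much lower. In HIOP_GSK over CTL the cone and ganglion cell lists again had 7 of 9 markers at least 2-fold lower, against 6.32% of all genes kept. Their medians were -1.35 and -1.03. The Müller glia median there was -1.002 and the amacrine median -0.82. Bipolar markers had medians of -0.72 in HIOP_GSK over CTL and -0.53 in HIOP over CTL, and horizontal cell markers of -0.13 and -0.16 in the same order.

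Tissue next to the retina and blood cells also varied. The 8 lens markers summed to 9079 CPM in HIOP_GSK, 2226 CPM in HIOP and 760.1 CPM in CTL. Surface epithelium markers without Pax6, which is also in the amacrine list and took most of the HIOP_GSK and HIOP sums, came to 69.5 CPM in HIOP_GSK, 17.9 CPM in HIOP and 270.3 CPM in CTL over 5 genes. With Pax6 they summed to 274, 229 and 568 CPM in the same order. Pigment epithelium markers summed to 204 CPM in HIOP_GSK, 143 CPM in HIOP and 348 CPM in CTL. The 5 matched neutrophil markers summed to 134 CPM in HIOP_GSK, 114 CPM in HIOP and 1.18 CPM in CTL. Microglia and macrophage markers summed to 108 CPM in HIOP_GSK, 37.7 CPM in HIOP and 38.3 CPM in CTL, and astrocyte markers to 184, 57.6 and 85.7 CPM in that order. Both sums join markers that moved apart. In HIOP over CTL 2 of the 8 microglia and macrophage markers were at least 2-fold higher, against 8.99% of all genes kept, and 3 lower, against 8.06%. Of the astrocyte markers, Gfap had 162 CPM in HIOP_GSK, 37.5 CPM in HIOP and 36.0 CPM in CTL, and S100b 20.8, 19.3 and 48.6 CPM. Endothelial and pericyte markers summed to 398 CPM in HIOP_GSK, 367 CPM in HIOP and 702 CPM in CTL, and red blood cell markers to 138, 291 and 129 CPM. The order of Dbp, Per1 and Per3, lowest in HIOP and highest in CTL, was shared by the summed markers of surface epithelium, pigment epithelium, endothelium, Müller glia, amacrine, horizontal and ganglion cells. The Müller glia sums, for example, were 2294 CPM in HIOP_GSK, 1975 CPM in HIOP and 4149 CPM in CTL. The horizontal cell sums lay closer together, at 45.0 CPM in HIOP_GSK, 43.6 CPM in HIOP and 52.0 CPM in CTL. Of these, Onecut1 had 5.79, 4.38 and 12.3 CPM and Calb1 33.2, 34.4 and 34.4 CPM in the same order. Lens, neutrophil, cone, rod, bipolar, astrocyte, microglia and macrophage, and red blood cell sums had other orders.

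**Figure D5:**
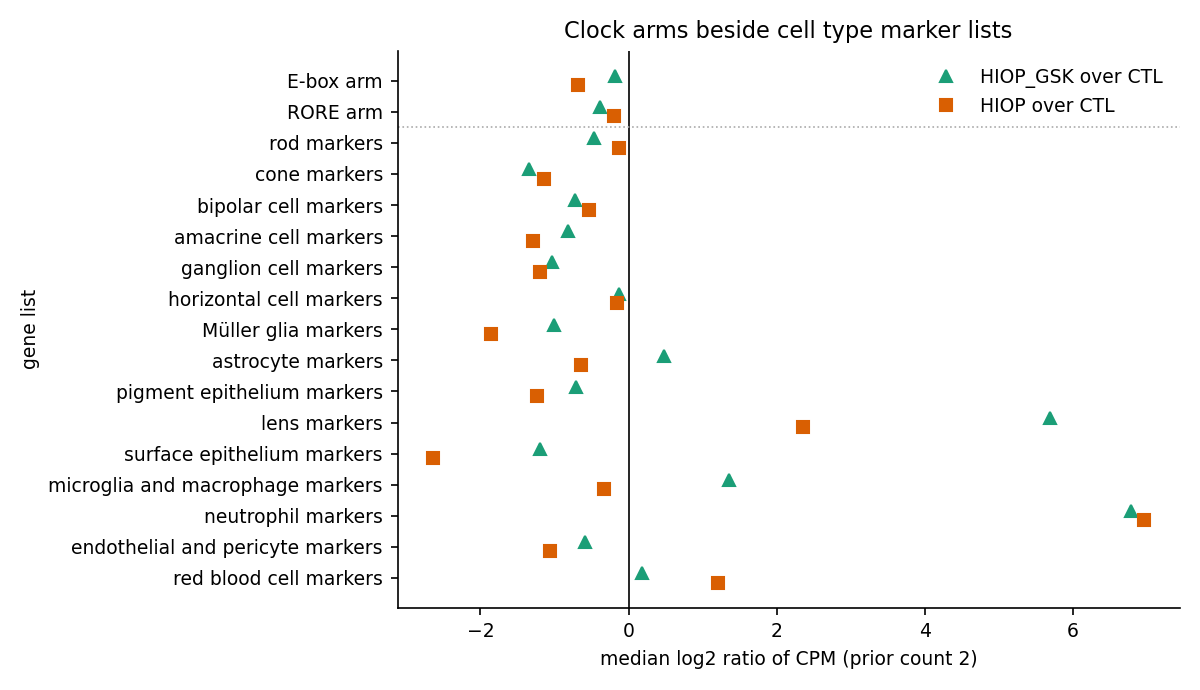
Median log2 ratio of CPM against CTL, in HIOP_GSK and in HIOP, for the clock arms above the dotted line and for each cell type marker list below it, 1 library per group. The cone, amacrine, ganglion cell and Müller glia lists lie further below zero than either clock arm in both comparisons.

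Many other genes had the pattern of a clock gene across these libraries. Among 11358 named genes with at least 100 counts in a library, those whose log2 ratios in HIOP over CTL and HIOP_GSK over CTL lay nearest to those of Dbp were Barhl2, Gprc5b, Mgarp, Fam13a and Arap2, at distances of 0.02 to 0.03 on the log2 scale. In all, 49 genes lay within 0.1 of Dbp. Nearest to Arntl were Fbn1, Me2, Lamb1, Meikin and Endog, at 0.01 each, among 200 genes within 0.1. The likeness rests on 2 ratios from 3 libraries, and none of these 10 genes is in the clock lists.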

How the data were processed

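RNA of 3 retina libraries was measured, with deposited counts summing to 15132754 in HIOP_GSK, 17221510 in HIOP and 16090064 in CTL. The deposited counts are whole numbers and were used as they are; the deposited TPM values, which sum to the same total in each library, served for levels per length and as an alternative. The tools named are STAR 2.5.4b and RSEM 1.3.1, with the build Rnor_6.0, per the submitters' processing notes; the role of each and the strand setting are not given in the sources used here, which makes counts of overlapping genes uncertain. Libraries were directional, per the labels' protocols.

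Counts were scaled with TMM factors of edgeR 4.0.16 in R 4.3.3 (1.005 in HIOP_GSK, 0.995 in HIOP and 1.001 in CTL). Calls used a limit of 2-fold on log2 CPM (prior count 2), and ratios used scaled counts without a prior, with a Clopper-Pearson interval at 95%. Ratios relative to a second gene used the sample odds ratio with the conditional exact interval (scipy 1.17.1). A count of 0 allows up to 3 counts, or 0.197 CPM in HIOP_GSK, 0.175 CPM in HIOP and 0.186 CPM in CTL. No model across libraries was fitted. The functions were tested on simulated data.

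The members and the 26 gene lists (195 genes, 189 matched by symbol, 2 by a synonym in the RefSeq table of GRCr8, and 4 not used here) were chosen with earlier results of these data known. Named genes were all 10 members, up to 6 genes per clock list past 2-fold in HIOP over CTL or HIOP_GSK over HIOP with at least 20 counts, and the 5 genes nearest to Dbp and to Arntl; other genes named were chosen after their values were seen. Alternatives were DESeq2 1.42.0 size factors, total counts, TPM, other filters, prior counts and gene sets for scaling.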

Additional observations from a re-analysis of the deposited data

How the results depend on the processing

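No paired analysis was possible because each group has 1 library, and no replicate could be left out. Results were recomputed under 11 other settings. The arm difference ran from -0.55 to -0.49 in HIOP over CTL, 0.14 to 0.20 in HIOP_GSK over CTL and 0.47 to 0.48 in HIOP_GSK over HIOP. Library scaling shifts both arms alike, and all 10 members passed each filter. The scaling and filter settings could therefore hardly move this difference, and its kept sign bears only on TPM and the prior counts. With Nr1d1 left out of the E-box arm, chosen after seeing the data, it was -0.55, 0.06 and 0.49 in the same order, and with the RORE arm also cut to Arntl alone it was -0.55, 0.09 and 0.57. Of 300 recomputed member ratios, 4 changed sign, those of Per2 and Clock in HIOP_GSK over CTL, with the deposited TPM and with scaling to the reference genes. Per2 was then at -0.05 and -0.03 and Clock at -0.07 and -0.09 in that order; scaling to the reference genes moved the median of all genes kept by -0.18 in HIOP_GSK over CTL and -0.13 in HIOP_GSK over HIOP. The number of members at least 2-fold lower in HIOP_GSK over CTL, 0 as reported, was 1 (Ciart, which lies on the limit) with a filter at CPM 5, with scaling without the neighbouring-tissue and neutrophil lists, with TPM and with a prior count of 0.5, and 2 (Dbp and Ciart) with scaling to the reference genes. A limit of 1.5-fold gave 4 members lower in HIOP over CTL, 2 lower in HIOP_GSK over CTL and 1 higher in HIOP_GSK over HIOP. Genes at least 2-fold different numbered 2649 in HIOP over CTL, 2610 in HIOP_GSK over CTL and 972 in HIOP_GSK over HIOP, and without a filter 4063, 4360 and 2159 in the same order. At CPM 5 they were 1659 in HIOP_GSK over CTL and 460 in HIOP_GSK over HIOP, and with a prior count of 10 they were 634 in HIOP_GSK over HIOP. At 1.5-fold they were 5236 in HIOP over CTL, 5322 in HIOP_GSK over CTL and 2242 in HIOP_GSK over HIOP. Filters and limits change which genes count by construction; the cause of the other differences was not tested. Depth limits Ciart, Arntl2 and Aanat most.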

Other observations

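Genes that modify clock proteins differed little. Of 20 listed, 19 were kept and none was 2-fold different in any of the 3 comparisons. Of all genes kept, 8.06% were that much lower and 8.99% higher in HIOP over CTL. The shares were 6.32% and 10.5% in HIOP_GSK over CTL, and 1.69% and 4.56% in HIOP_GSK over HIOP. The list's median log2 ratios were 0.14 for HIOP over CTL, 0.09 for HIOP_GSK over CTL and -0.03 for HIOP_GSK over HIOP. Between HIOP and CTL the range ran from -0.28 for Btrc, a subunit that marks PER proteins for breakdown, to 0.69 for Wdr5. Csnk1a1, a casein kinase, had 498 CPM in HIOP_GSK, 508 CPM in HIOP and 333 CPM in CTL. These 3 genes, and Fkbp5 and Tsc22d3 below, were chosen after their values were seen.

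Genes that respond to glucocorticoids, hormones that reset peripheral clocks and can switch on Per1, had no member past 2-fold among 7 kept. The shares of all genes kept are those given for the clock protein modifiers. Medians were 0.04 for HIOP over CTL, -0.16 for HIOP_GSK over CTL and 0.15 for HIOP_GSK over HIOP. Fkbp5 had 50.1 CPM in HIOP_GSK, 43.6 CPM in HIOP and 25.5 CPM in CTL, while Tsc22d3 had 37.4 CPM in HIOP_GSK, 33.6 CPM in HIOP and 48.5 CPM in CTL, so these targets of 1 receptor stood on opposite sides of CTL. The reference gene list, with 9 of 10 kept, had a median of 0.05 in HIOP over CTL and 0.18 for HIOP_GSK over CTL. In the latter 1 of the 9 was 2-fold higher, against 10.5% of all genes kept.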
